A study of Homo sapiens with 4 samples.

Results

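The transcripts described here encode the proteasome, the large protease that degrades proteins tagged with ubiquitin, together with its activators and the factors that help to assemble it. Members were the genes whose platform annotation gives a single symbol made of PSM, a letter from A to G and a number, each read from its brightest transcript cluster. There were 36 such members among 14232 genes with a single symbol, and each of the 36 had 1 cluster. The rule reads intensities to find the brightest cluster, which decided nothing here, and the set was picked with results of these arrays known, so its values below are a description. A further 7 clusters list a proteasome symbol beside other genes and are not used here. By function the 36 are 6 alpha subunits and 7 constitutive beta subunits of the core, 2 inducible core subunits, 6 subunits of the base, 5 of the lid, 5 activators and inhibitors, and 5 assembly factors.

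Expression was measured on Affymetrix whole-transcript arrays, in total RNA of cells labelled HepG2 and of K562 cells. HepG2 derives from a liver carcinoma and K562 from a chronic myeloid leukaemia. The groups were HepG2 with an siRNA against ADAR1 (ADARkd), HepG2 with a scrambled siRNA (SCR), K562 ADARkd and K562 SCR, at 1 array each. In all 4 groups the siRNA came from a stably transfected plasmid, the ADAR1 one being the most effective of several tried, and the labels do not say whether the cells were 1 clone or a pool. ADAR1 converts adenosines to inosines where RNA is double-stranded, and the series set out to see how it acts on splicing.

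The proteasome has a barrel-shaped core of stacked rings, the outer ones of alpha subunits and the inner ones of beta subunits, of which PSMB5, PSMB6 and PSMB7 carry the active sites. On the core sits a regulatory particle. Its base holds the ATPases (PSMC) that unfold the substrate and the scaffolds PSMD1 and PSMD2, and its lid holds subunits that position and process the ubiquitin chain. In cells exposed to interferon gamma, PSMB8 and PSMB10 can take the place of PSMB5 and PSMB7, and PSME1 with PSME2 forms an alternative cap. When proteasome activity falls, the transcription factor NFE2L1 is known to raise the genes of core and regulatory particle together.

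The targeted transcript and the markers of each line were read first. The log2 intensity of ADAR was 7.27 in ADARkd and 8.96 in SCR on the arrays labelled HepG2, and at 6.78 in ADARkd and 7.99 in SCR in K562, which is 3.23-fold and 2.32-fold lower. A gene was kept in a line where the mean of its log2 values reached the median over genes, 5.31 on the arrays labelled HepG2 and 5.28 in K562. Of 17 measured hepatocyte markers, 2 were kept on the arrays labelled HepG2: CPS1, a urea cycle enzyme, at 10.56 in ADARkd and 10.89 in SCR, and the transcription factor FOXA1 at 6.23 in ADARkd and 6.13 in SCR. ALB (albumin) stood at 2.97 in ADARkd and 3.04 in SCR there, and at 3.39 in ADARkd and 3.19 in SCR in K562, where CPS1 was at 3.29 in ADARkd and 3.21 in SCR. With most of these markers under the filter level, the arrays are called labelled HepG2 throughout. All 9 measured erythroid markers were kept in K562. Of 13 measured fibroblast and stromal markers, 9 were kept on the arrays labelled HepG2. Of these 9, 5 were at least 2-fold lower in ADARkd, against 1.57% of kept genes. At least 1.5-fold higher were 2, against 12.4% of kept genes. The summed intensity of the 13 was 2346 in ADARkd and 2596 in SCR there, and 524 in ADARkd and 556 in SCR in K562. None of the 13 was at 0. On the arrays labelled HepG2 the sum joins opposite shifts. The intensity of LUM was 1037 in ADARkd and 604 in SCR, and that of DCN 505 in ADARkd and 324 in SCR. LOX was at 65 in ADARkd and 293 in SCR, and COL3A1 at 30 in ADARkd and 163 in SCR. The other kept markers at least 2-fold lower were COL1A1, FN1 and FAP. The part of these markers in the differences below was not tested. Each line and arm has 1 array, so the differences within a line were not tested, and in bulk RNA a change in the number of cells of a type and a change per cell cannot be told apart.

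On the arrays labelled HepG2, all 13 constitutive core subunits among the members and all kept base and lid members stood higher in ADARkd than in SCR, by 0.22 to 1.23 on the log2 scale. Subunits outside the 36, such as PSMA6, PSMC1 and PSMD14, were not analysed here. The inducible core subunits and most assembly factors differed by less, and PSME1 of the interferon-linked cap was lower. Of the 36 members 34 were kept, and 19 of them were at least 1.5-fold higher in ADARkd, where 12.4% of the 7116 kept genes were. None was at least 1.5-fold lower, against 5.73% of kept genes. At 2-fold, 6 members were higher, against 2.46% of kept genes, and none was lower, against 1.57%. The median log2 difference, ADARkd minus SCR, was 0.64 over the kept members and 0.11 over all kept genes (0.62 over all 36 members and 0.0075 over all 14232 genes). After loess normalization 14 members were at least 1.5-fold higher, against 8.92% of genes, and after quantile normalization 15, against 8.46%. The median over members was then 0.49 and 0.54.

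**Figure D1:**
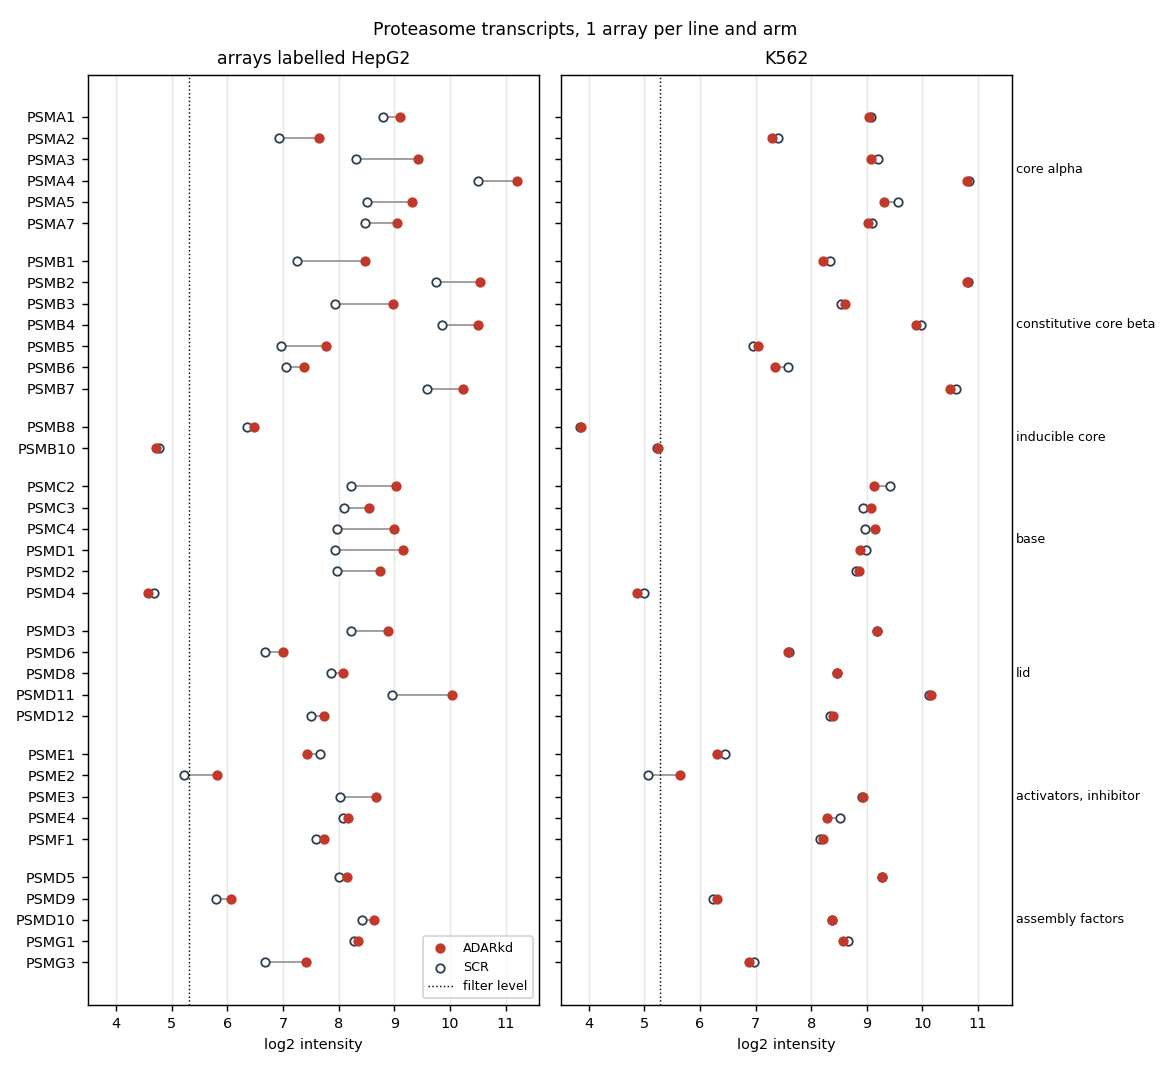
Log2 intensity of each of the 36 members on the ADARkd (filled) and SCR (open) array of each line, grouped by subcomplex; the dotted line is the filter level of the line and each point is 1 array. On the arrays labelled HepG2 the filled points lie to the right for the constitutive core and lid subunits shown and the base subunits except PSMD4, and in K562 the largest gap is that of PSME2.

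The 6 members past 2-fold came from the core and both parts of the regulatory particle. PSMD1, a scaffold of the base, had the highest difference, with 9.16 in ADARkd and 7.92 in SCR on the arrays labelled HepG2 (1.23, or 2.35-fold). PSMB1, a beta subunit with no active site, stood at 8.47 in ADARkd and 7.25 in SCR (1.22). PSMA3 of the alpha ring stood at 9.43 in ADARkd and 8.30 in SCR (1.12). These were ranks 78, 81 and 119 from the top among the 7116 kept genes. PSMD11, the lid subunit that braces the lid against base and core, stood at 10.04 in ADARkd and 8.96 in SCR (2.11-fold). PSMB3, another beta subunit without an active site, stood at 8.98 in ADARkd and 7.93 in SCR (1.05), while the intensity of PSMC4, an ATPase of the base, was 512 in ADARkd and 252 in SCR (1.03 on the log2 scale). In K562 these 6 lay close to their SCR levels, with differences of -0.11 for PSMD1, -0.13 for PSMB1, -0.12 for PSMA3, 0.03 for PSMD11, 0.07 for PSMB3 and 0.17 for PSMC4. After loess PSMD1 and PSMB1 remained past 2-fold on the arrays labelled HepG2, at 1.07 and 1.06.

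The sequences around the start sites are shown for the 5 of these 6 genes that have a window (PSMB1 has none), and for PSMB8 and PSME1, interferon-linked members that were lower in K562. The windows run from 250 bases before to 50 after the start, from RefSeq on GRCh38.p14, written 5′ to 3′ on the gene's strand. In PSMD1 (chr2:231056617-231056916, plus strand) and PSMC4 (chr19:39970915-39971214, plus strand), capitals mark the core of the antioxidant response element, TGACNNNGC on either strand, which NFE2L1 with a small MAF partner can bind, and in PSMC4 also TTCNNNGAA, which STAT proteins can bind. In PSMB3 (chr17:38752491-38752790, plus strand) they mark that core and CCAAT, and in PSMA3 (chr14:58244593-58244892, plus strand) CCAAT on either strand. The window of PSMD11 (chr17:32444260-32444559, plus strand) holds none of the 5 motifs searched and has no capitals. In PSMB8 (chr6:32843998-32844297, minus strand; its other window holds none of the motifs) they mark the interferon response motif (GAAA, any 2 bases, GAAA) on either strand, bound by interferon regulatory factors, and TTCNNNGAA. In PSME1 (chr14:24135944-24136243, plus strand) they mark the interferon response motif and TGACNNNGC.
PSMD1: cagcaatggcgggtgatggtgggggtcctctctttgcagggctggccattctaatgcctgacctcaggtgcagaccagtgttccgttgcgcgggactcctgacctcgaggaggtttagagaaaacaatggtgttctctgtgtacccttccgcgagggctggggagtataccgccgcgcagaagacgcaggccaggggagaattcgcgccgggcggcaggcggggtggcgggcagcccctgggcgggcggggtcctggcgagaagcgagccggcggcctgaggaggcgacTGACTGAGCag
PSMC4: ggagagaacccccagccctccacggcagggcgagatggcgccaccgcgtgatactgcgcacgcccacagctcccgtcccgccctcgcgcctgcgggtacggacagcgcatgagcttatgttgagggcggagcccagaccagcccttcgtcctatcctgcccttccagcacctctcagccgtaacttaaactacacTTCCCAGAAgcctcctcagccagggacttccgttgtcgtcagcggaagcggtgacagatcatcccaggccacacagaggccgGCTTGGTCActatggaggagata
PSMB3: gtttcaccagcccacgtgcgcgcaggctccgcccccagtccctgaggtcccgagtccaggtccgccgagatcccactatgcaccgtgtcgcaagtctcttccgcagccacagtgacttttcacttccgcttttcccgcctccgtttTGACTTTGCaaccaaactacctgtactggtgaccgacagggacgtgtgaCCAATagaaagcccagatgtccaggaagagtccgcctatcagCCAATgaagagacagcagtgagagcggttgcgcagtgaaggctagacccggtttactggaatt
PSMA3: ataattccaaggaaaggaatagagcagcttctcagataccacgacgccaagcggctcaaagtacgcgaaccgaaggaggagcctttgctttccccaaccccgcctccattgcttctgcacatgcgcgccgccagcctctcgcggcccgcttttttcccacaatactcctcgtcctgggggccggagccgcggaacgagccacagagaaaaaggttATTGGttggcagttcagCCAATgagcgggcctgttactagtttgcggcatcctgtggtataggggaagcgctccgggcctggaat
PSMD11: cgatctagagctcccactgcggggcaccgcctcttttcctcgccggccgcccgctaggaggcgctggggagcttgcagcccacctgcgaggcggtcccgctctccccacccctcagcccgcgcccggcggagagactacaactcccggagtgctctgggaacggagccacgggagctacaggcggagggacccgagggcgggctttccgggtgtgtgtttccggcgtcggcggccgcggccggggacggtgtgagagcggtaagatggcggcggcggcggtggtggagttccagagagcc
PSMB8: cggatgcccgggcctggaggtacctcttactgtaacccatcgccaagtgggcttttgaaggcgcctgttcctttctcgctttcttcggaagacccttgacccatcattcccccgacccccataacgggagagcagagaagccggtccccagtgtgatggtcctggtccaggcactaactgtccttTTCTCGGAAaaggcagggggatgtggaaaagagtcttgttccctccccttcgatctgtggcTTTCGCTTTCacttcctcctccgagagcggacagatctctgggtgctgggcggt
PSME1: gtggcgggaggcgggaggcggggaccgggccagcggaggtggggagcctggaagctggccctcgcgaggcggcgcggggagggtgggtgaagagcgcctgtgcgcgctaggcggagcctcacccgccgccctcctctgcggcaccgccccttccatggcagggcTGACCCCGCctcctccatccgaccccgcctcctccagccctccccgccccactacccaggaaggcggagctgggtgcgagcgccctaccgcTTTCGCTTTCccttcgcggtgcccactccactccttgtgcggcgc

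Windows were found for 30 of the 36 members, 36 windows in all. TGACNNNGC was present in 12 of these 36 windows and in 13.3% of all 35116 windows of the same length. The interferon response motif was present in 6, against 3.57% of all windows, and the genes were PSMA4, PSMB4, PSMB8, PSMB10, PSME1 and PSME2. CCAAT was in 15 against 34.6%, the ETS motif CCGGAAG in 7 against 10.3% and TTCNNNGAA in 7 against 7.66%. All were searched on both strands, and TTCNNNGAA and the interferon response motif can share bases. The 12 members with TGACNNNGC had differences from -0.24 to 1.23 on the arrays labelled HepG2, with a median of 0.43, and the 18 without it from -0.05 to 1.12, with a median of 0.64. The median was 0.70 in 15 members with CCAAT and 0.26 in 15 without, 0.23 in 7 with CCGGAAG and 0.65 in 23 without, and 0.72 in 7 with TTCNNNGAA and 0.32 in 23 without. For the interferon response motif it was 0.36 in 6 members and 0.64 in 24. For every motif the ranges with and without it overlapped, none of these gaps was tested, and a match describes these windows only.

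Within the core on the arrays labelled HepG2, the alpha subunits had a median difference of 0.71 over 6 members and the constitutive beta subunits 0.78 over 7, and all 13 were higher in ADARkd. Among alpha subunits PSMA5 differed by 0.81, PSMA2 by 0.72 and PSMA4 by 0.70. PSMA7 lay just under the 1.5-fold bound at 0.57 (1.49-fold), and PSMA1 had the smallest alpha difference at 0.30. PSMB2, a beta subunit whose transcript is a known ADAR editing target, stood at 10.53 in ADARkd and 9.75 in SCR (0.78), against 10.79 in ADARkd and 10.82 in SCR in K562. PSMB4, which has no active site, differed by 0.65.

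The 3 constitutive catalytic subunits were not alike in size. PSMB5, with the chymotrypsin-like site, stood at 7.77 in ADARkd and 6.97 in SCR on the arrays labelled HepG2 (0.81). PSMB7, with the trypsin-like site, stood at 10.23 in ADARkd and 9.58 in SCR (0.65). PSMB6, with the caspase-like site, stood at 7.38 in ADARkd and 7.05 in SCR (0.33), the smallest difference of the constitutive beta subunits. In K562 the values in ADARkd and SCR were 7.04 and 6.95 for PSMB5, 10.49 and 10.59 for PSMB7, and 7.34 and 7.58 for PSMB6.

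Their inducible counterparts differed less. PSMB8, the counterpart of PSMB5, stood at 6.48 in ADARkd and 6.35 in SCR on the arrays labelled HepG2 (0.13), and PSMB10, the counterpart of PSMB7, at 4.72 in ADARkd and 4.77 in SCR (-0.05). In K562 PSMB8 stood at 3.85 in ADARkd and 3.84 in SCR, and PSMB10 at 5.25 in ADARkd and 5.22 in SCR. PSMB10 lay under the filter level in both lines and PSMB8 in K562, where background can set the value. PSMB9, the remaining inducible subunit, shares its cluster with another symbol and is not used here.

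In the regulatory particle the base had a median difference of 0.81 over 5 kept members and the lid 0.32 over 5. Among the ATPases beside PSMC4, PSMC2 differed by 0.81 and PSMC3 by 0.44. PSMD2, the other scaffold of the base, differed by 0.78. PSMD4, a ubiquitin receptor, was the exception at 4.57 in ADARkd and 4.67 in SCR, under the filter level. The lid was split: beside PSMD11, PSMD3 differed by 0.65, while PSMD6 (0.32), PSMD12 (0.23) and PSMD8 (0.22), all structural subunits, differed by less. After loess the lid median was 0.20, the base median 0.64 and those of the alpha and beta subunits 0.57 and 0.63.

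Activators and the inhibitor had a median of 0.14 over 5 members, which was 0.012 after quantile normalization and -0.012 after loess. PSME3, which forms a nuclear cap, stood at 8.66 in ADARkd and 8.03 in SCR on the arrays labelled HepG2 (0.64). PSME1 was the only kept member with a lower value in ADARkd, at 7.43 against 7.66 in SCR (-0.24, and -0.35 after loess). PSME2, its partner in the cap, went the other way, at 5.82 in ADARkd and 5.22 in SCR (0.60), with the SCR level under the filter level. PSME4, an activator prominent in testis, differed by 0.08 and the inhibitor PSMF1 by 0.14, and after loess these were -0.08 and -0.01.

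The assembly factors had a median of 0.22 over 5 members, or 0.056 after loess. PSMG3, a chaperone of the alpha ring, was at least 1.5-fold higher on the arrays labelled HepG2, at 7.41 in ADARkd and 6.68 in SCR (0.73). Its fellow chaperone PSMG1 stood at 8.34 in ADARkd and 8.27 in SCR (0.07). The chaperones of the base, PSMD9 (0.26), PSMD10 (0.22) and PSMD5 (0.14), lay between them. After loess PSMG1 and PSMD5 were at -0.09 and -0.02. In all, 16 of 23 kept members of the core (without its inducible subunits), base and lid were at least 1.5-fold higher, with a median of 0.72, and 3 of the other 11, with a median of 0.14. At least 1.5-fold higher were 12.4% of all kept genes, and the median of all kept genes was 0.11. Both sets join several of the subcomplexes, a grouping that was not planned. Members are not replicates, and this difference between the sets was not tested.

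**Figure D2:**
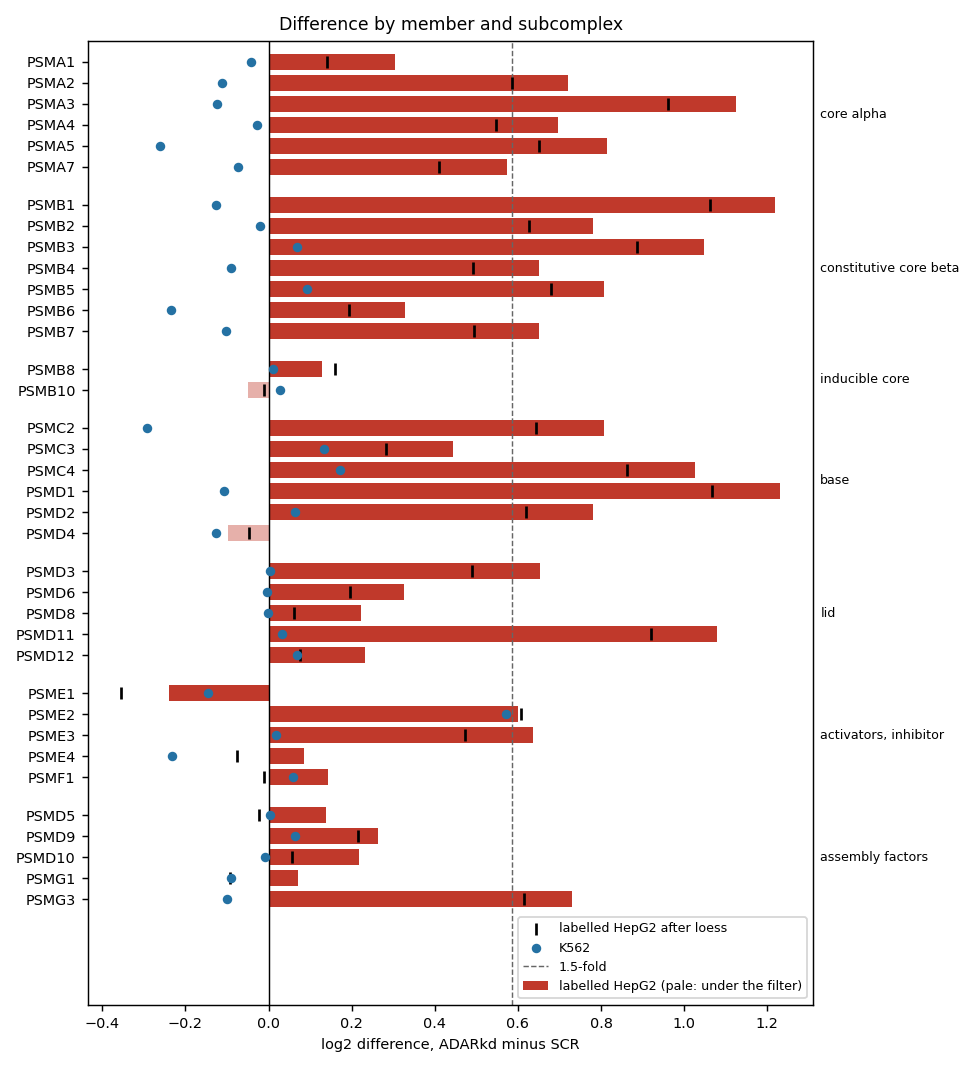
Log2 difference, ADARkd minus SCR, of each member by subcomplex: bars for the arrays labelled HepG2 (pale where the member lay under the filter), black ticks for the same difference after loess, blue points for K562; the dashed line is 1.5-fold. Bars pass the line for 19 kept members, while the K562 points lie between -0.29 and 0.57.

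Many members are bright. Of the 34 kept on the arrays labelled HepG2, 21 lay in the brightest of 5 equal bins of kept genes, a split chosen after the values were seen. The median difference of these 21 was 0.65, against 0.16 for all 1423 genes of that bin. Of the 34, 33 had a difference above 0, against 60.9% of kept genes, and 17 were at or above 0.64, the level that 10% of kept genes reached.

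In K562 the proteasome members lay close to their SCR levels. Of 33 kept members, none was at least 1.5-fold higher or lower, against 0.267% and 0.759% of kept genes, and none was 2-fold apart, against 0.0281% and 0.126%, so a count of 0 is near the background. The median difference was -0.02 over members and -0.07 over all 7116 kept genes; after quantile normalization and loess the median over members was 0.04 and 0.04. Alpha subunits had a median of -0.09, constitutive beta subunits of -0.09, the base of 0.06, the lid of 0.0047, activators of 0.02 and assembly factors of -0.0083. Differences above 0 were found for 13 of 33 members, against 33.3% of kept genes. The lowest were PSMC2 at -0.29, with 9.13 in ADARkd and 9.42 in SCR, and PSMA5 at -0.26, with 9.30 in ADARkd and 9.56 in SCR. Both were among the members that stood higher in ADARkd on the arrays labelled HepG2.

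PSME2 was the exception in K562, at 5.64 in ADARkd and 5.07 in SCR. Its difference of 0.57 was 1.49-fold and ranked as number 24 from the top of the 7116 kept genes. It was at least 1.5-fold after quantile normalization (0.62) and after centring (0.64), and under that bound after loess (0.56) and with log2(value + 16) (0.41). The SCR level lay under the filter level in K562, as it did on the arrays labelled HepG2. PSMC4 came next at 0.17 and PSMC3 at 0.13.

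**Figure D3:**
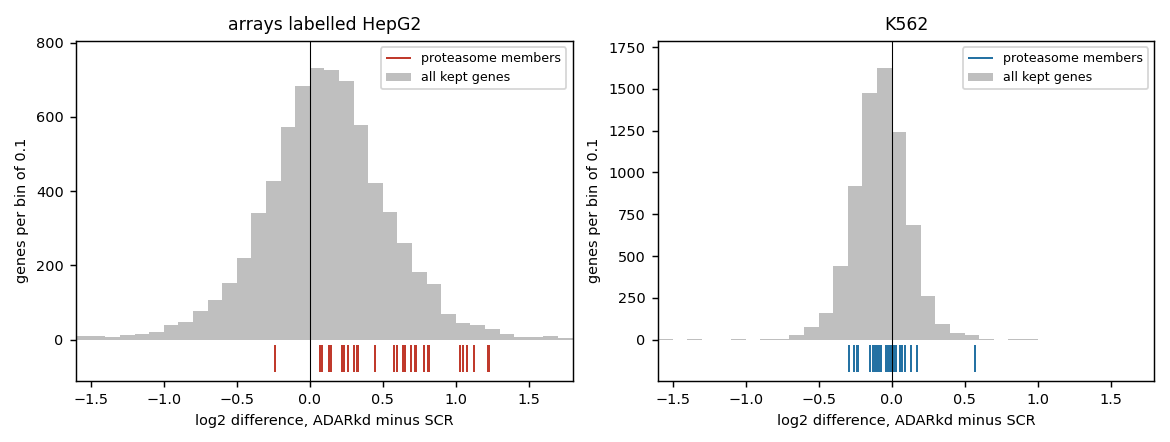
Distribution of the log2 difference, ADARkd minus SCR, over all kept genes of each line (grey, genes per bin of 0.1; a few genes lie beyond the axis) with each kept proteasome member as a tick below. On the arrays labelled HepG2 33 of 34 ticks lie above 0, and in K562 the ticks lie in the middle of the distribution, with PSME2 apart on the right.

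Both lines were then fitted in 1 model, whose arm term estimates the mean of the knockdown differences of the 2 lines. This mean is called the shared difference, and it can be far from 0 when only 1 line differs. In limma with line and arm as terms, 0 of 33 members and 0 of 6204 genes kept in both lines passed at a Benjamini-Hochberg adjusted p under 0.05, and 2 members and 179 genes had an unadjusted p under 0.05. The 2 were PSME2, with a shared difference of 0.59 ± 0.18 (SE, 2 lines; limma adjusted p = 1.0), and PSMC4, with 0.60 ± 0.24 (limma adjusted p = 1.0). The PSME2 differences were alike in K562 (0.57) and on the arrays labelled HepG2 (0.60), while those of PSMC4 were not (0.17 and 1.03 in the same order). Without an intensity trend the counts were 0 adjusted for members and genes, and 2 and 174 unadjusted. ADAR, the silenced gene itself, did not pass either, with a shared difference of -1.45 ± 0.22 (limma adjusted p = 0.87). The count of 0 therefore does not show that the members were unchanged. For 34 of the 36 members the difference was larger on the arrays labelled HepG2 than in K562, against 6755 of all 14232 genes, kept or not. These shares are not like for like, because 33 of the 36 members but 6204 of the 14232 genes were kept in both lines. The median difference of kept genes was itself higher on the arrays labelled HepG2 (0.11) than in K562 (-0.07). Of the 33 members kept in both lines, 19 were higher in ADARkd on the arrays labelled HepG2 and lower in K562, against 41.4% of the 6204 genes, and after loess 10 were, against 26%. Whether the lines differ in their knockdown effect cannot be tested with 1 array per group.

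The levels of the members in K562 and on the arrays labelled HepG2 were compared within each arm. In the SCR arrays the members stood higher in K562, with a median log2 difference, K562 minus labelled HepG2, of 0.62 over 34 members kept in either line, against 0.12 over 8028 genes. In the ADARkd arrays the median was 0.04, against -0.05 over the genes. At least 1.5-fold higher in K562 were 2 of 34 members in the ADARkd arrays, against 19.3% of genes, and 19 of 34 in the SCR arrays, against 25.4% of genes. Values at least 1.5-fold lower in K562 were found for 4 members in the ADARkd arrays, against 26.7% of genes, and for 2 in the SCR arrays, against 22.1%. These gaps share their arrays with the knockdown differences above, so they restate them from the side of the line and add no separate evidence. PSMA5, for example, differed between the lines by -0.02 in the ADARkd arrays and by 1.06 in the SCR arrays, and PSMD11 by 0.11 in the ADARkd arrays and 1.16 in the SCR arrays.

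**Figure D4:**
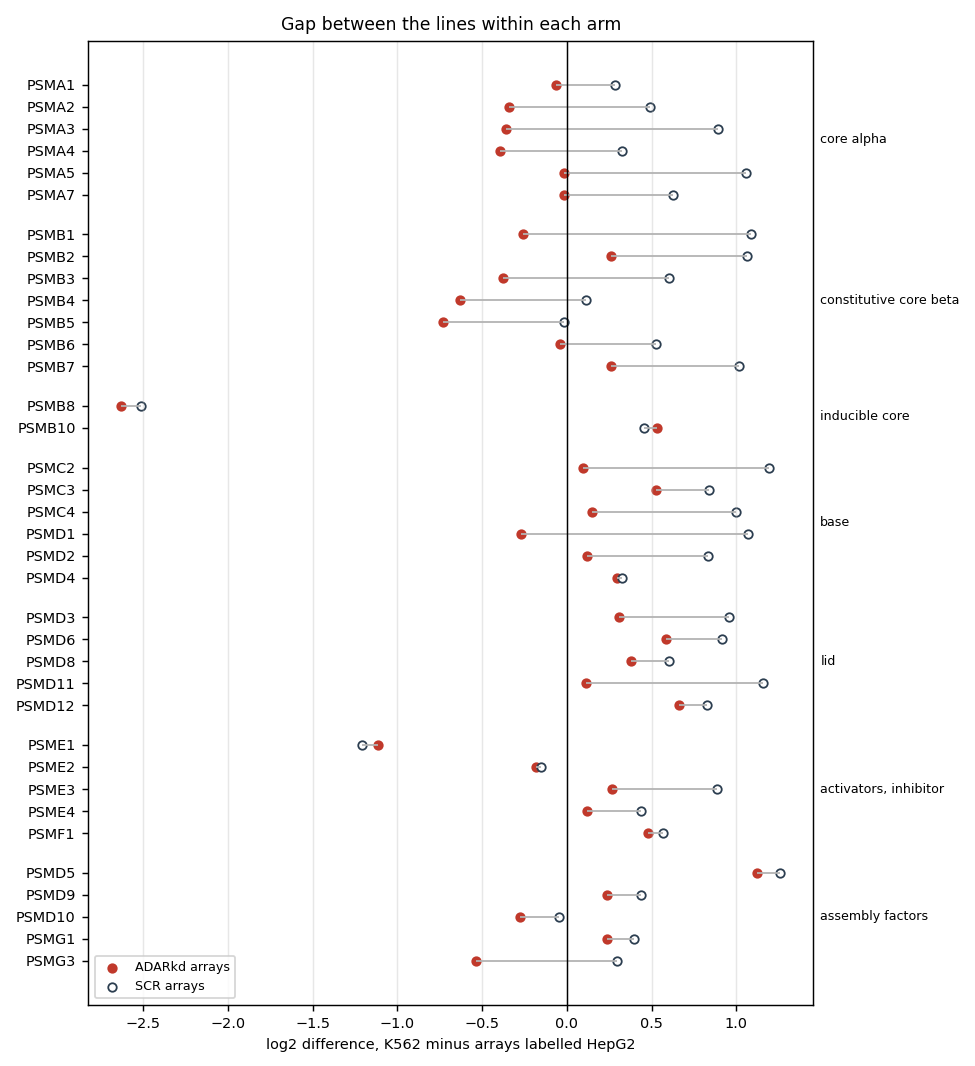
Log2 difference, K562 minus arrays labelled HepG2, of each member within the ADARkd arrays (filled) and within the SCR arrays (open), grouped by subcomplex; each point is the difference of 2 arrays. Open points of constitutive core, base and lid subunits lie above 0 except PSMB5, and their filled points lie between -0.73 and 0.66, while PSMB8, PSME1 and PSMD5 hold nearly the same gap in both arms.

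Over both arms, 3 of 34 members differed between the lines past an adjusted p under 0.05 and 2-fold. PSME1 was lower in K562 (K562 minus labelled HepG2 -1.16 ± 0.20, SE, 2 arrays per line; limma adjusted p = 0.00337), with line means of 6.38 in K562 and 7.55 on the arrays labelled HepG2. PSMD5, a chaperone of the base, was higher in K562 (1.19 ± 0.19; limma adjusted p = 0.00252), with line means of 9.27 in K562 and 8.08 on the arrays labelled HepG2. The third was PSMB8, with line means of 3.85 in K562 and 6.42 on the arrays labelled HepG2. It passed the filter only through the arrays where it is high and lay under the filter level in K562, so it had to differ and its p is not given. Of all 8028 genes, 14.7% passed as lower and 10.3% as higher in K562, so the 2 and 1 members are fewer than these shares. Over the 6204 genes kept in both lines, a set chosen after seeing the data, 1 of 33 members was lower and 1 higher, against 8.25% and 5.85% of genes. Without the 2-fold bound PSMD6 (0.75), PSMD12 (0.74), PSMC3 (0.68), PSMB2 (0.66) and PSMB7 (0.64) also passed as higher in K562. With PSMD5 that is 6 of 34 members, near the 19.5% of all 8028 genes that did. The fit leaves 1 residual degree of freedom, so its standard errors lean on a variance that limma pools over genes. The 2 arrays of a line are its ADARkd and SCR cells, and no group was repeated. The p-values of the fit therefore do not measure a spread between replicate cultures.

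Genes that act with the inducible subunits in peptide presentation on class I molecules were read beside PSMB8 and PSME1. Of 9 measured, 6 were tested and 4 passed as lower in K562 without the 2-fold bound, where 22.5% of all 8028 genes did. They were the peptide transporter subunit TAP1 (-0.93 ± 0.20; limma adjusted p = 0.00866), the light chain B2M (-0.89 ± 0.16), the peptide-loading factor TAPBP (-0.89 ± 0.20) and HLA-E (-0.88 ± 0.23). ERAP1, which trims peptides in the endoplasmic reticulum, had line means of 7.06 in K562 and 5.05 on the arrays labelled HepG2, where it lay under the filter level; it entered only through K562, so its test is not given. In the knockdown comparison none of 5 kept genes of this list was 1.5-fold apart on the arrays labelled HepG2, where their median was -0.07. In K562 the median was -0.32 over 6 genes, and HLA-E, at 5.80 in ADARkd and 6.42 in SCR (-0.62), was the only one at least 1.5-fold lower, against 0.759% of kept genes. The interferon-response factor IRF1 and the class I regulator NLRC5 were under the filter level in both lines.

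Proteins that bind the proteasome or help to build it, outside the PSM symbols, had a median difference of 0.35 over 9 kept genes on the arrays labelled HepG2 (0.21 after loess) and of -0.12 over 10 in K562. POMP, which guides assembly of the beta ring, was the 1 gene of 9 at least 1.5-fold higher, near the 12.4% of kept genes, at 8.30 in ADARkd and 7.58 in SCR on the arrays labelled HepG2 (0.72), against 8.79 in ADARkd and 8.88 in SCR in K562. SEM1, a small lid subunit, differed by 0.53 on the arrays labelled HepG2 and the deubiquitinase USP14 by 0.46. UBE3C, a ubiquitin ligase that works at the proteasome, differed by -0.05. In K562 no gene of this list was 1.5-fold apart.

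The genes that bear on transcription of proteasome subunits did not stand apart as a list. On the arrays labelled HepG2 none of 5 kept genes was 1.5-fold apart and the median was 0.03 (-0.13 after loess). NFE2L1 itself stood at 8.63 in ADARkd and 8.60 in SCR (0.03). VCP, the ATPase that pulls NFE2L1 from the endoplasmic reticulum, differed by 0.41, NGLY1, which removes its sugars, by 0.18, the protease DDI2 by -0.30 and the small MAF partner MAFG by -0.45. MAFF, another small MAF, went the other way at 5.58 in ADARkd and 4.83 in SCR (0.75), with its mean under the filter level. NFE2L1 is controlled largely after translation, so these arrays measure its transcript and not its activity. In K562 the median was -0.04 and NFE2L1 differed by -0.16. Ubiquitin, its activating enzymes and its shuttles had medians of 0.15 on the arrays labelled HepG2 (-0.0067 after loess) and -0.09 in K562, over 7 genes in each, with none 1.5-fold apart. UBB, a gene for polyubiquitin, differed by 0.15 on the arrays labelled HepG2 and 0.12 in K562, RAD23B, a shuttle of ubiquitinated substrates, by 0.32 on the arrays labelled HepG2 and 0.02 in K562, and UBQLN4, another shuttle, by -0.39 and -0.11 in the same order.

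A pair of complexes share their architecture with the lid. The COP9 signalosome, which removes NEDD8 from cullin ligases, had a median difference of 0.48 over 10 genes on the arrays labelled HepG2 (0.32 after loess), and all 10 differences were above 0, against 60.9% of kept genes. Of these, 2 were at least 1.5-fold higher, not far from the 12.4% of kept genes: COPS4, at 6.81 in ADARkd and 5.66 in SCR (1.15), and COPS7B, at 7.37 in ADARkd and 6.74 in SCR (0.64). The initiation factor eIF3 had a median of 0.20 over 10 genes (0.05 after loess), with none 1.5-fold apart, from EIF3E at -0.35 to EIF3I at 0.49. In K562 the medians were -0.0049 for the COP9 signalosome and 0.05 for eIF3. For comparison the lid members had 0.32 on the arrays labelled HepG2 and 0.0047 in K562.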

How the data were processed

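Total RNA was labelled with biotin for Affymetrix whole-transcript arrays, per the labels' protocols. The authors deposited a linear, positive intensity for each transcript cluster. Per the submitters' processing notes RMA and hg18 were used; other steps are not given in the sources used here. Of 17881 clusters, 14432 had 1 gene symbol; 2408 with several and 1041 with none were not used. RefSeq held all 36 member symbols under the same Entrez numbers. The log2 of the intensity was taken with no offset, the brightest cluster stood for a gene, and genes were kept as described in the results. Differences within a line have no test. Both fits used limma 3.58.1 in R 4.3.3 (lmFit, eBayes with trend, two-sided, Benjamini-Hochberg over all kept genes, 1 residual degree of freedom). Only the arm term was tested on simulated data, with effects of 2 on the log2 scale in either direction, larger than those of the members. Figures used matplotlib 3.10.9. Median intensities ran from 36.1 to 37.0; the number of arrays limits the precision. Signal over background was not analysed here. Members and lists were chosen with earlier results of these data known. All 4 values were due for the members at each end of a line's ranking (2 each way), the catalytic subunits and their inducible counterparts, members with opposite signs of at least 0.3 in the 2 lines (none), and the 3 largest line differences each way. In other lists up to 3 genes each way per line were named; other members given in full were chosen after their values were seen. Alternatives were quantile and loess normalization, log2(value + 16), no filter or one at the 75th percentile, the mean of all clusters, centring, no trend, a 2-fold bound, each arm alone and, chosen after seeing the data, the line comparison over genes kept in both lines.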

Additional observations from a re-analysis of the deposited data

Results flagged for a closer look

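Of the 36 members, 19 were higher in ADARkd on the arrays labelled HepG2 and lower in K562, and 1 was the reverse (PSMB10). All 19 were kept in both lines, that is 19 of 33, against 41.4% of the 6204 genes kept in both. The count was 13 after quantile normalization, 11 after loess and 10 after centring. Of the members kept in both lines it was then 12, 10 and 10 of 33, against 24.9%, 26% and 24.7% of genes. The median of the kept members was 0.64 on the arrays labelled HepG2 and -0.02 in K562, and the K562 median was above 0 under all 3 of these scalings (0.04, 0.04 and 0.05), so that difference in sign depends on the scaling. The difference between the lines was not tested, and with 1 array per group each sign rests on a pair of arrays. Values on the arrays labelled HepG2 against K562 were 1.23 against -0.11 for PSMD1, 1.22 against -0.13 for PSMB1 and 1.12 against -0.12 for PSMA3. They were 0.81 against -0.26 for PSMA5, 0.81 against -0.29 for PSMC2, 0.78 against -0.02 for PSMB2 and 0.73 against -0.10 for PSMG3. PSMA2 had 0.72 against -0.11, PSMA4 0.70 against -0.03, PSMB7 0.65 against -0.10, PSMB4 0.65 against -0.09 and PSMA7 0.57 against -0.07. PSMB6 had 0.33 against -0.24, PSMD6 0.32 against -0.0043, PSMA1 0.30 against -0.04, PSMD8 0.22 against -0.0023 and PSMD10 0.22 against -0.0083. The smallest were PSME4 at 0.085 against -0.23, PSMG1 at 0.071 against -0.09 and PSMB10 at -0.050 against 0.03. No member had opposite signs of at least 0.3 in both lines.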

How the results depend on the processing

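No paired analysis was possible because each group has 1 array. On the arrays labelled HepG2 the count of members at least 1.5-fold higher, 19, was 14 to 19 under the planned normalizations, offset, filters, cluster mean and centring, and 6 with the 2-fold bound. In K562 the count of 0 was 1 after quantile normalization and 1 after centring, PSME2 in each. On the arrays labelled HepG2 the median of activators and the inhibitor (0.14) was 0.012 after quantile normalization, -0.012 after loess and 0.035 after centring. That of the assembly factors (0.22) was 0.075, 0.056 and 0.11 under the same settings, that of the lid (0.32) 0.20 after loess and that of the inducible core (0.13, PSMB8 alone) 0.022 after centring. The median over kept members in K562 (-0.02) was 0.04 after quantile normalization, 0.04 after loess and 0.05 after centring. No other subcomplex median moved by more than 0.1 and by more than 1.5 times; the inducible core had no kept member in K562. These shifts come from processing the same arrays in other ways. They do not measure a spread between replicates, which the design lacks. The count of 1 member higher in K562 was 8 within the SCR arrays at 2-fold with no test, and the count of 2 lower in K562 was 1 with the filter at the 75th percentile and 1 over the genes kept in both lines, an alternative chosen after seeing the data. Of single members, PSMB2 lost its line call with no trend and PSMB7 with no trend and with log2(value + 16). PSME2, PSME3, PSMB4, PSMB7, PSMA4 and PSMD3 were under 1.5-fold on the arrays labelled HepG2 under at least 1 setting. No shared effect on a member passed under any setting, and in the main fit ADAR itself did not pass. Dim values (PSMB8 in K562, PSMB10, PSMD4, PSME2) are the least certain.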
